A study of Mus musculus with 19 samples.

Results

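The delta protocadherins are the main group of non-clustered protocadherins, and 10 of them were examined here: Pcdh1, Pcdh7, Pcdh8, Pcdh9, Pcdh10, Pcdh11x, Pcdh17, Pcdh18, Pcdh19 and Pcdh20. The rule that defines them is a list of symbols and uses no measured value, and each symbol was matched through its Ensembl identifier to 1 of the 47069 genes listed for every RNA-seq library. The study asked which genes differ between retinal ganglion cells (RGCs) whose axons avoid the midline at the optic chiasm (iRGCs, ipsilateral) and those whose axons cross it (cRGCs, contralateral). Cells were sorted by flow cytometry from E16.5 mouse retinas that carried Sun1-GFP, a nuclear envelope protein fused to GFP that is made from the Rosa26 locus once Cre recombinase has removed a stop cassette. The iRGCs came from embryos with the Slc6a4-Cre transgene (Sert, the serotonin transporter), and the cRGCs from embryos with Cre knocked into the Pou4f2 (Brn3b) locus, whose ventrotemporal retina, the source of most ipsilateral axons, was dissected away. Both groups carried the reporter and a Cre driver, were otherwise labelled wild type, had the same C57 and DBA background and were pooled from male and female embryos. GFP marks cells in which the driver has been active and the descendants of those cells. Each population had 3 polyA RNA libraries, with 28193178, 29759011 and 30874653 reads on genes in iRGCs and 28274471, 30454674 and 33638083 in cRGCs. Nothing in the labels says that libraries came from separate litters, so the p-values measure the spread between these libraries, which may be technical. The library names in the labels start with one prefix for the 3 iRGC libraries and with another for the 3 cRGC libraries. The labels do not say what the prefixes stand for, and any such difference and the populations cannot be told apart.

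Protocadherins are single-pass membrane proteins with extracellular cadherin repeats that bind weakly to the same protein on a neighbouring cell. Unlike the clustered alpha, beta and gamma genes, the delta genes do not lie in tandem arrays. Delta-1 members (Pcdh1, Pcdh7, Pcdh9 and Pcdh11x) have an additional extracellular repeat and a cytoplasmic motif that binds protein phosphatase 1 (PP1), whereas several delta-2 members (Pcdh8, Pcdh10, Pcdh17, Pcdh18 and Pcdh19) recruit the WAVE complex, which switches on actin branching by the Arp2/3 complex. In the developing nervous system they are known for sorting cells and for the growth and bundling of axons, and different neurons carry different combinations of them.

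The labels were first compared with marker genes, which were chosen with earlier results of these data known. Levels are given as CPM (read counts divided by the library's total in units of 1000000 reads, scaled for library composition by the TMM method). Slc6a4, the gene of the iRGC driver, had 2.06, 33.4 and 116 CPM in iRGC replicates 1, 2 and 3 and 48.1, 35.4 and 30.5 CPM in the cRGC replicates. The library labelled iRGC replicate 1 therefore had the lowest Slc6a4 of all 6, the populations overlapped, and the difference did not pass the test (log2 fold change 0.41, SE 0.929, adjusted p = 0.768, edgeR quasi-likelihood test with Benjamini-Hochberg adjustment). Zic2, the transcription factor that specifies ipsilateral RGCs, had 133, 173 and 157 CPM in iRGCs against 57.0, 60.2 and 65.7 CPM in cRGCs, with no overlap. The fold change of each member is given below with and without iRGC replicate 1. The same is done for cRGC replicate 3. It held the lowest cRGC values of the RGC genes Pou4f1 (431 CPM, against 861 and 672) and Isl2 (45.7 CPM, against 130.4 and 111). It was also the lowest for Thy1 (3.19 CPM, against 46.5 and 39.1) and Pou4f3 (34.0 CPM, against 48.3 and 49.1). The same library held the highest cRGC values of Pou4f2, Isl1, Nefm, Nefl, Stmn2 and Elavl4. Pou4f2, the gene of the cRGC driver, had 191, 196 and 293 CPM in cRGCs and 74.7, 133 and 98.3 CPM in iRGCs, without overlap.

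The populations also differed in markers of other cells. The 13 retinal progenitor markers summed to 9363, 8162 and 7015 CPM in iRGCs and to 805, 2100.3 and 1350.0 CPM in cRGCs, and all 13 were higher in iRGCs. The most abundant was Ccnd1 (3362, 2649 and 2520.1 CPM against 277, 779 and 471). Sfrp2 had the largest log2 fold change of them, 2.92, from 327, 495 and 157 CPM against 15.7, 50.5 and 63.2. The 13 RGC markers summed to 2271, 3195 and 4905 CPM in iRGCs and to 12831, 11664 and 14099 CPM in cRGCs, and 12 of them were lower in iRGCs, led in level by Nefm (418, 525 and 975 CPM against 2131, 1809.7 and 2818). Neither list was at 0 for any gene in any library. The 6 photoreceptor precursor markers summed to 807, 641 and 625 CPM in iRGCs against 169.5, 256 and 206 CPM, with 5 higher and Rxrg lower, and the 6 amacrine markers to 283, 240.3 and 342 CPM against 123, 147 and 97.2, with 5 higher.
Of the blood vessel markers, 6 of 10 endothelial genes were tested and all 6 were higher in iRGCs. Of 9 mural cell genes, 5 were tested and 4 were higher, beside 23.3% of all tested genes. Some, such as Rgs5 (at most 0.323 CPM in cRGCs), had enough counts to be tested only through the iRGC libraries. For such genes a call of higher was favoured in advance, so these counts only describe the lists. The 10 endothelial markers summed to 448, 648 and 436 CPM in iRGCs and 88.7, 109 and 71.8 CPM in cRGCs. The most abundant was Kdr (366, 320.5 and 418 CPM in iRGCs), which retinal progenitors also express. In iRGC replicate 2, Pecam1 (53.0 CPM), Flt1 (49.5 CPM) and Tie1 (44.1 CPM) added to the sum. The defining endothelial gene Cdh5 had 15.2, 81.3 and 0.158 CPM in iRGCs and was at 0 in the 3 cRGC libraries, and Tie1 was likewise at 0 there. The 9 mural cell markers summed to 135, 278 and 121 CPM against 20.8, 31.8 and 23.2 CPM, led by Notch3 (113, 117 and 83.5 CPM in iRGCs), and Rgs5, a pericyte gene, had 3.76, 93.8 and 2.24 CPM in iRGCs. iRGC replicate 2 thus stood highest for both vessel lists. The 7 microglia markers summed to 15.6, 21.6 and 14.4 CPM in iRGCs and 0.577, 3.83 and 1.84 CPM in cRGCs, led by Csf1r.
The 7 fibroblast markers summed to 17.7, 27.1 and 9.40 CPM in iRGCs against 8.73, 10.1 and 10.2 CPM in cRGCs, led by Col1a2, with Lum at 0 in all 6 libraries. The 7 pigment epithelium markers summed to at most 7.76 CPM in any library, led by Mitf, and Rpe65 was at 0 in all but iRGC replicate 3 (0.126 CPM). The 4 astrocyte markers summed to at most 8.38 CPM, nearly all of it Aldh1l1, and the 4 horizontal cell markers to 115, 96.5 and 115 CPM in iRGCs against 62.5, 76.8 and 72.9 CPM, led by Prox1. The part of any of these cells in the protocadherin differences was not tested, and in bulk RNA fewer cells of a type and less RNA per cell cannot be told apart.

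**Figure D1:**
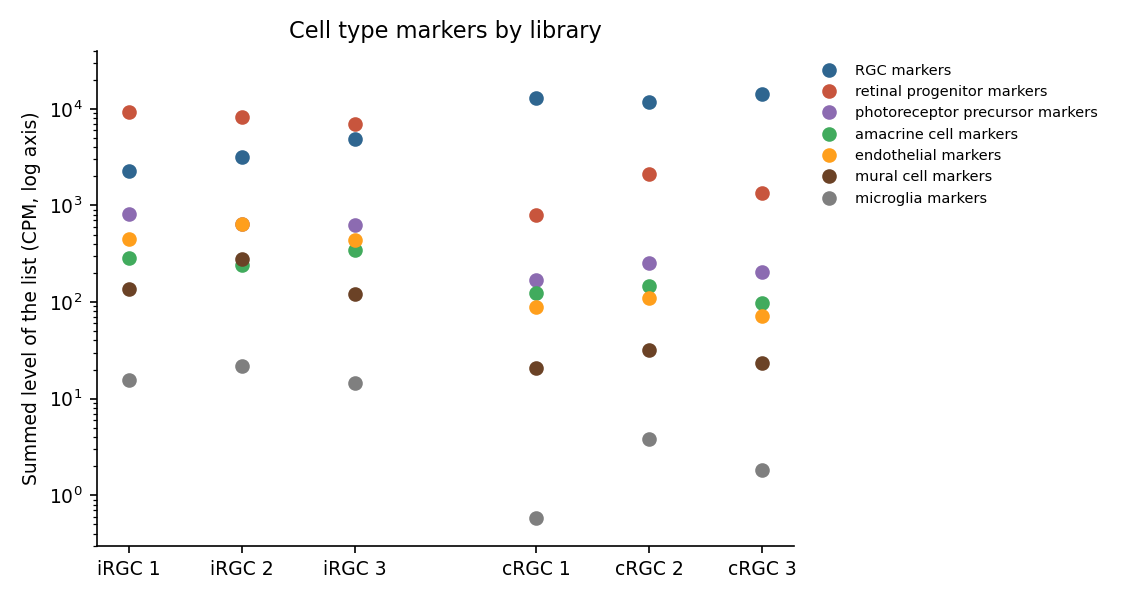
Summed level of 7 cell type marker lists (y axis, CPM, log scale) in each of the 6 libraries (x axis), with 1 point per list and library. Progenitor markers lie above RGC markers in the 3 iRGC libraries (9363 against 2271 CPM in replicate 1) and below them in the 3 cRGC libraries (805 against 12831 CPM in replicate 1).

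All 10 delta protocadherins had enough counts to be tested, from 74 reads (Pcdh20 in iRGC replicate 1) to 6635 reads (Pcdh19 in cRGC replicate 3). Pcdh1, Pcdh8, Pcdh9, Pcdh11x, Pcdh19 and Pcdh20 were lower in iRGCs, Pcdh17 and Pcdh18 were higher, and Pcdh7 and Pcdh10 did not pass the test at an adjusted p under 0.1. That is 6 of 10 lower and 2 of 10 higher, beside 23.1% and 23.3% of the 15941 tested genes, so the share that was higher lay near that of all genes and the share that was lower lay above it. In 6 of the 10 the 3 iRGC and the 3 cRGC libraries did not overlap, beside 55.3% of all tested genes, which is close to the background. The median log2 fold change of iRGCs over cRGCs was -1.15 for the 10 members and -0.00 for all tested genes. Without iRGC replicate 1 the counts were 5 lower and 2 higher, and without cRGC replicate 3 they were 7 lower and 1 higher.
By subgroup, 3 of 4 delta-1 genes were lower and none was higher, with a median log2 fold change of -1.51. Of the 5 delta-2 genes, 2 were lower, 2 were higher and 1 did not pass, with a median of -0.59. The lowest and the highest log2 fold changes of the family, -1.76 for Pcdh9 and 3.06 for Pcdh18, fell in different subgroups. The reads on the 10 genes together came to 10088, 12192 and 13051 in the iRGC libraries and 17389, 19194 and 19513 in the cRGC libraries, or 324, 377 and 412 CPM against 669, 662 and 629.7 CPM. No iRGC library reached the lowest cRGC sum.

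**Figure D2:**
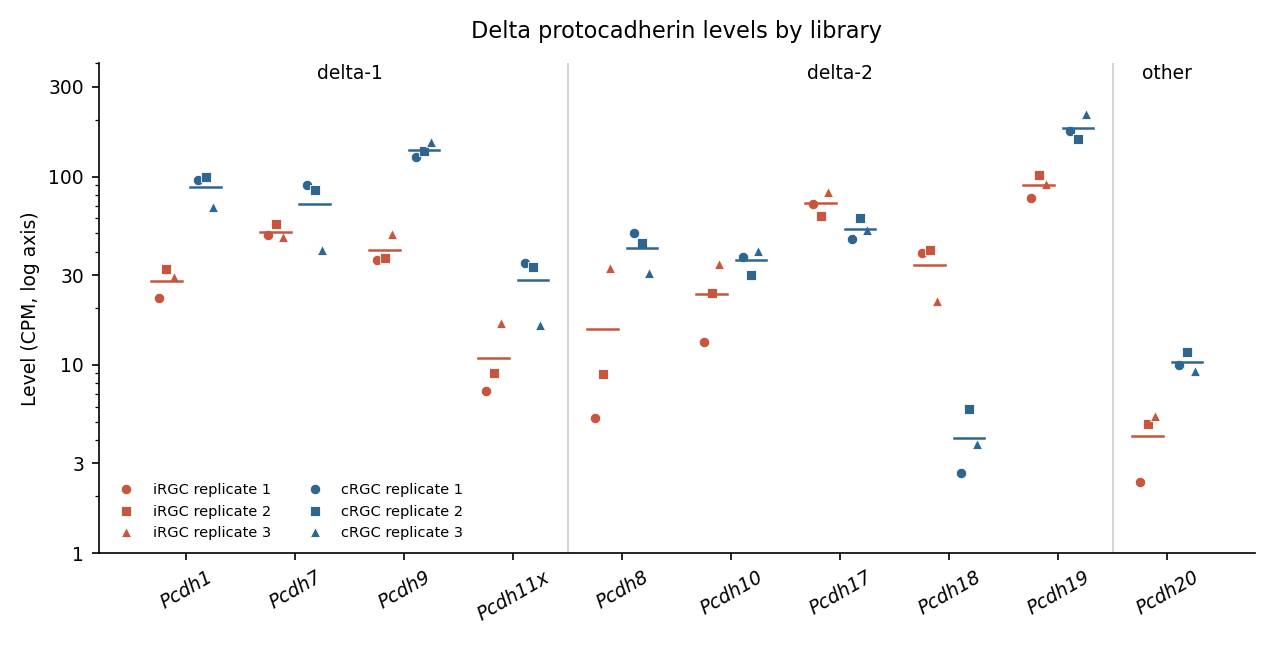
Level of each delta protocadherin (x axis, by subgroup) in CPM on a log axis, with 1 symbol per library (iRGC red, cRGC blue, symbol shape by replicate) and a line at the mean of each population. Pcdh18 is the only member whose iRGC libraries (21.9 to 40.8 CPM) all lie several-fold above its cRGC libraries (2.65 to 5.80 CPM), while Pcdh1 and Pcdh9 show the opposite order without overlap.

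The sequence before the start of transcription was read for 8 members from the RefSeq promoter table (assembly GRCm38.p6, 250 bases before to 50 after the start). It was read because members that moved in opposite directions held the same short motif there. The other members, Pcdh1 and Pcdh11x, were not read. CCAAT, the box bound by nuclear factor Y, was searched on both strands as CCAAT or ATTGG. It occurred in 7 of the 8 members, all but Pcdh7, and in 41.1% of 27025 genes (37.4% of 32851 promoters). The capitals mark the motif, each line is written 5′ to 3′ on the strand of the gene, and the first 2 lines are genes that were higher in iRGCs, the next 4 genes that were lower and the last a gene that did not pass the test.
Pcdh18: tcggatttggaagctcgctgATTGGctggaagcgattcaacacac
Pcdh17: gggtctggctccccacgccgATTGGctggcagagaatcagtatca
Pcdh19: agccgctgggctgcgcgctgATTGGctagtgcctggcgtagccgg
Pcdh9: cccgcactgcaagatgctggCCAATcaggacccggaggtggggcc
Pcdh8: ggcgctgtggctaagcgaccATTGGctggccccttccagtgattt
Pcdh20: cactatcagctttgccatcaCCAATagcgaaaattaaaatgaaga
Pcdh10: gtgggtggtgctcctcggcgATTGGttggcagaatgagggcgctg
These stretches are chr3:49757324-49757368 (minus strand) for Pcdh18, chr14:84443485-84443529 (plus) for Pcdh17, chrX:133689034-133689078 (minus) for Pcdh19, chr14:93890737-93890781 (minus) for Pcdh9, chr14:79771356-79771400 (minus) for Pcdh8, chr14:88471557-88471601 (minus) for Pcdh20 and chr3:45378328-45378372 (plus) for Pcdh10. The motif began 32 bases before the start in Pcdh18, 50 in Pcdh10, 58 in Pcdh17, 65 in Pcdh19 and 68 in Pcdh8, in reverse orientation in all 5. In Pcdh9 it was forward and lay 92 or 82 bases before 2 alternative starts, and in Pcdh20 it was forward and 185 bases before the start. Pcdh17 held another copy 101 bases before its start.

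A further 3 motifs were searched on both strands. ATTTGCAT, the octamer bound by POU-domain factors, was found in Pcdh8 alone, 47 bases before the start, and in 1.97% of all genes. The stretch is shown because it lies between the CCAAT box and the start of a gene that was lower in iRGCs.
Pcdh8: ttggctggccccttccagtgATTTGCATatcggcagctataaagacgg
It is chr14:79771332-79771379 on the minus strand. TAATTA, a core that many homeodomain factors recognise, was found in none of the 8 members and in 6.12% of genes, and CCTGCTG, a core recognised by Zic factors, in Pcdh18 alone, 245 bases before the start, and in 12% of genes, which is near 1 in 8 members. The number of CpG dinucleotides in the 300 bases ranged from 4 in Pcdh20 to 26 in Pcdh17, beside a median of 7.0 over all promoters. Pcdh18 had 23, Pcdh10 had 24 and Pcdh7 had 11. Of the other members that were lower in iRGCs, Pcdh9 had 19 or 18 at its alternative starts, Pcdh19 had 18 and Pcdh8 had 14. Counts above the median thus occurred in members of every outcome. Both higher members had more than each lower member that was read, but the lower members Pcdh1 and Pcdh11x were not read. Pcdh10, which did not pass the test, had more (24) than the higher member Pcdh18 (23). A match describes the sequence and shows neither binding nor a cause.

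Among the delta-1 genes, Pcdh9 had the lowest fold change of the family. Pcdh9 (ENSMUSG00000055421, chr14:93013410-93890679, minus strand, GRCm38) is an adhesion protein of the developing brain encoded by the longest of the 10 genes, 877.3 kb. It had 36.2, 36.8 and 49.7 CPM in the iRGC libraries and 127, 136 and 153 CPM in the cRGC libraries. The log2 fold change was -1.76 (edgeR, SE 0.154, Benjamini-Hochberg adjusted p = 2.05e-04), a 3.39-fold lower level in iRGCs. All 3 cRGC libraries lay above all 3 iRGC libraries by a wide margin, and each population was tight, with a CV of 18.6% in iRGCs and 9.78% in cRGCs. The value was -1.68 without iRGC replicate 1 and also without cRGC replicate 3.

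Pcdh1 (ENSMUSG00000051375, on chromosome 18) is best known outside the nervous system, as an epithelial adhesion protein and as an entry receptor of New World hantaviruses. Pcdh1 had 22.6, 32.3 and 29.2 CPM in iRGCs and 95.4, 100 and 69.1 CPM in cRGCs. The log2 fold change was -1.65 (edgeR, SE 0.188, Benjamini-Hochberg adjusted p = 2.94e-04), or 3.14-fold lower. The lowest cRGC library, replicate 3, still had more than any iRGC library, and without it the log2 fold change was -1.80. It was -1.52 without iRGC replicate 1.

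Pcdh11x (ENSMUSG00000034755, chrX:120290259-120910619, plus strand) is X-linked and brain-enriched. It had 7.24, 9.03 and 16.6 CPM in iRGCs and 34.9, 33.0 and 16.3 CPM in cRGCs. It passed the test at -1.36 (edgeR, SE 0.375, Benjamini-Hochberg adjusted p = 0.0186), yet the populations touched, since iRGC replicate 3 was marginally above cRGC replicate 3. Without iRGC replicate 1 the value was -1.13 (adjusted p = 0.0566, edgeR with Benjamini-Hochberg), and without cRGC replicate 3 it was -1.63.

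Pcdh7 (ENSMUSG00000029108, chr5:57717967-58133230, plus strand), known as NF-protocadherin in frogs, where it acts in retinal axon growth, did not pass the test. It had 49.0, 56.0 and 47.9 CPM in iRGCs and 90.5, 84.4 and 40.6 CPM in cRGCs, with a log2 fold change of -0.49 (edgeR, SE 0.264, Benjamini-Hochberg adjusted p = 0.176). The iRGC libraries lay close together, and a single cRGC library, replicate 3, fell below all of them. Without that library the log2 fold change was -0.77 (adjusted p = 0.00529, edgeR with Benjamini-Hochberg), so 1 library decided the call. Leaving out iRGC replicate 1 gave -0.47. In addition, 21.1% of the exonic bases of Pcdh7 overlap the antisense gene 4932441J04Rik, which had 0, 50 and 89 reads in iRGCs and 162, 127 and 134 reads in cRGCs. The strand setting of the counting is not given in the sources used here, and without strand the reads of an antisense pair cannot be told apart.

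Among the delta-2 genes, Pcdh18 had the highest fold change of the family. Pcdh18 (ENSMUSG00000037892, chr3:49743296-49757325, minus strand) binds the reelin pathway adaptor Dab1 and, in zebrafish, acts in motor axon branching together with the WAVE complex subunit Nckap1. It had 39.2, 40.8 and 21.9 CPM in iRGCs and 2.65, 5.80 and 3.78 CPM in cRGCs, from 69 to 168 reads in the latter. The log2 fold change was 3.06 (edgeR, SE 0.352, Benjamini-Hochberg adjusted p = 3.07e-04), an 8.32-fold higher level in iRGCs. The lowest iRGC library, replicate 3, was far above the highest cRGC library, replicate 2. iRGC replicate 3, with the lowest Pcdh18 of iRGCs, had the lowest progenitor marker sum (7015 CPM) and the highest RGC marker sum (4905 CPM), and cRGC replicate 2, with the highest Pcdh18 of cRGCs, had the highest progenitor sum (2100.3 CPM). However, iRGC replicate 2, with the highest Pcdh18, had a lower progenitor sum (8162 CPM) than iRGC replicate 1 (9363 CPM). Its endothelial and mural cell sums (648 and 278 CPM) were the highest of all libraries. The mural cell sums had the same order over all libraries as Pcdh18. These sums were led by Notch3, which had that order by itself. The mural cell genes Pdgfrb and Rgs5 did not have it. Among cRGCs both were lowest in replicate 2, where Pcdh18 was highest, although Rgs5 was near 0 in all cRGC libraries. The part of progenitors or vessel cells in the difference was not tested. The value was 2.94 without iRGC replicate 1 and 3.01 without cRGC replicate 3.

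Pcdh17 (ENSMUSG00000035566, chr14:84443563-84539002, plus strand), which gathers the WAVE complex at contacts between axons that grow together, was the other member with a higher level in iRGCs. It had 71.9, 61.9 and 82.4 CPM in iRGCs and 46.5, 60.1 and 51.9 CPM in cRGCs. The difference was small, with a log2 fold change of 0.45 (edgeR, SE 0.15, Benjamini-Hochberg adjusted p = 0.0411), and the nearest libraries of both populations were only 61.9 and 60.1 CPM. Without iRGC replicate 1 the value was 0.45. The call was lost without iRGC replicate 3 (0.33), without cRGC replicate 1 (0.35) and without cRGC replicate 3 (0.44), with adjusted p-values of 0.124, 0.135 and 0.115 from edgeR with Benjamini-Hochberg.

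Pcdh19 (ENSMUSG00000051323, chrX:133582860-133688987, minus strand), which binds N-cadherin and is mutated in an X-linked epilepsy that affects mainly females, was lower in iRGCs. It had 77.3, 102 and 91.6 CPM in iRGCs and 175, 158 and 214 CPM in cRGCs, which gave -1.01 on the log2 scale (edgeR, SE 0.151, Benjamini-Hochberg adjusted p = 9.16e-04). The populations did not overlap, and the level in iRGCs was 2.02-fold lower. The values without iRGC replicate 1 and without cRGC replicate 3 were -0.91 and -0.87.

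Pcdh8 (ENSMUSG00000036422, chr14:79766775-79771312, minus strand) is known as paraxial protocadherin in the embryo and as arcadlin at synapses, where it draws N-cadherin into the cell through the kinase Taok2. It was the most uneven member. It had 5.24, 8.93 and 32.7 CPM in iRGCs, a 6.23-fold span, and 49.9, 44.3 and 30.9 CPM in cRGCs. iRGC replicate 3 lay within the cRGC range, and the other two iRGC libraries lay well below it. The log2 fold change was -1.42 (edgeR, SE 0.574, Benjamini-Hochberg adjusted p = 0.0817), the weakest of the 6 calls. Without iRGC replicate 1, iRGC replicate 2, cRGC replicate 1 or cRGC replicate 2 it was -1.0, -1.13, -1.30 or -1.37, with adjusted p-values of 0.153, 0.224, 0.180 and 0.141, so that no call remained, and without iRGC replicate 3 it was -2.56 (adjusted p = 3.95e-04, all from edgeR with Benjamini-Hochberg). Without cRGC replicate 3 it was -1.60 and the call was kept.

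Pcdh10 (ENSMUSG00000049100, chr3:45378398-45435623, plus strand), OL-protocadherin, is needed for the outgrowth of striatal axons in mice. It had 13.3, 24.0 and 34.3 CPM in iRGCs and 37.2, 29.9 and 40.5 CPM in cRGCs, with a log2 fold change of -0.59 (edgeR, SE 0.305, Benjamini-Hochberg adjusted p = 0.166). iRGC replicate 3 again lay inside the cRGC range, and without it the value was -0.95 (adjusted p = 0.0258, edgeR with Benjamini-Hochberg). Without iRGC replicate 1 it was only -0.30 (adjusted p = 0.322, edgeR with Benjamini-Hochberg), and without cRGC replicate 3 it was -0.49.
Pcdh20 (ENSMUSG00000050505, chr14:88464743-88471396, minus strand), which is placed in neither subgroup here, was the least abundant member in iRGCs per kilobase of exon. It had 2.38, 4.88 and 5.33 CPM in iRGCs and 9.96, 11.7 and 9.29 CPM in cRGCs. The libraries did not overlap, and the log2 fold change was -1.29 (edgeR, SE 0.36, Benjamini-Hochberg adjusted p = 0.0193). Values without iRGC replicate 1 and without cRGC replicate 3 were -1.01 and -1.37.

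**Figure D3:**
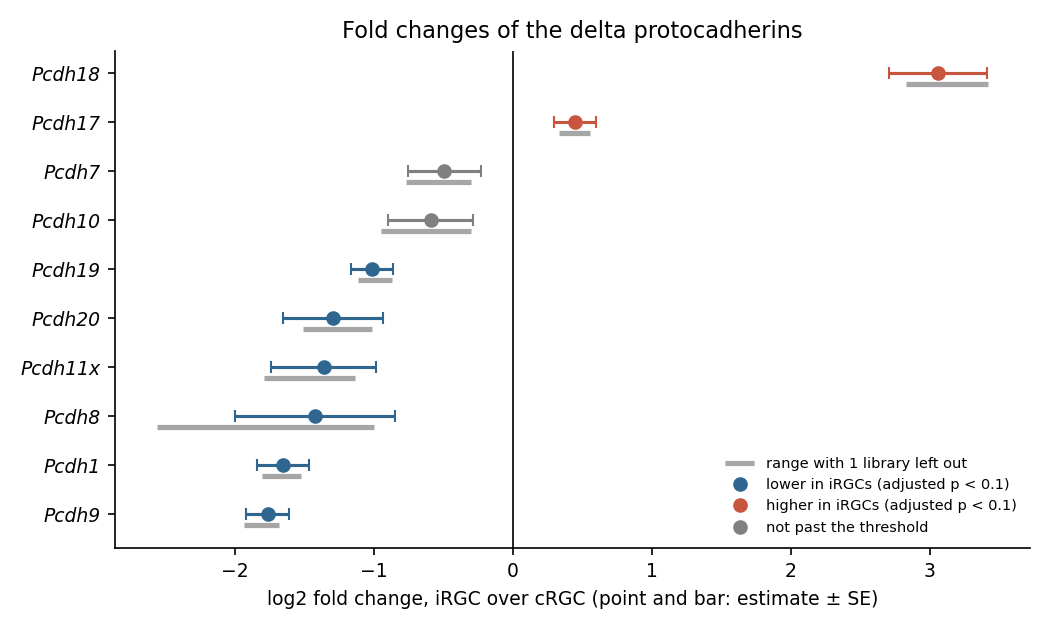
log2 fold change of iRGCs over cRGCs (x axis) for each member, with the estimate as a point, its SE as a bar, the colour for the call and a grey bar for the range when 1 of the 6 libraries was left out. Pcdh18 (3.06, grey bar from 2.83 to 3.42) and Pcdh9 (-1.76, grey bar from -1.93 to -1.68) are the extremes, and Pcdh8 has the widest grey bar, from -2.56 to -1.0.

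The library in which a member was highest or lowest was counted within each population. iRGC replicate 3 was the highest iRGC library for 6 members (Pcdh8, Pcdh9, Pcdh10, Pcdh11x, Pcdh17 and Pcdh20), beside 41% of all tested genes. iRGC replicate 1 was the lowest for 7 members, beside 45.2% of tested genes. cRGC replicate 3 was the lowest cRGC library for 5 members (Pcdh1, Pcdh7, Pcdh8, Pcdh11x and Pcdh20), beside 30.4% of tested genes. The highest cRGC library was replicate 1 for 3 members, replicate 2 for 4 and replicate 3 for 3, an even division. iRGC replicates 3 and 1 and cRGC replicate 3 are the libraries with the highest and the lowest RGC marker sums among iRGCs and, for cRGC replicate 3, with the lowest Pou4f1 and Isl2, although its RGC marker sum of 14099 CPM was the highest of all 6 libraries.

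To compare members with one another, CPM was divided by exon length (CPM per kb), because longer transcripts give more reads. In cRGCs the order of the mean levels was Pcdh9 (20.4 CPM per kb), Pcdh19 (17.4), Pcdh1 (10.0), Pcdh8 (9.19), Pcdh7 (6.78), Pcdh17 (4.07), Pcdh10 (2.26), Pcdh11x (2.01), Pcdh20 (1.88) and Pcdh18 (0.760). Neighbours in that order overlapped in their libraries except Pcdh19 and Pcdh1, Pcdh17 and Pcdh10, and Pcdh20 and Pcdh18. In iRGCs the order was Pcdh19 (8.64 CPM per kb), Pcdh18 (6.34), Pcdh9 (6.03), Pcdh17 (5.55), Pcdh7 (4.81), Pcdh8 (3.44), Pcdh1 (3.19), Pcdh10 (1.5), Pcdh11x (0.784) and Pcdh20 (0.764). There, only Pcdh1 and Pcdh10 did not overlap among neighbours. The place of Pcdh8 rested on iRGC replicate 3, since its libraries had 1.16, 1.97 and 7.20 CPM per kb, and without that library it lay below all iRGC libraries of Pcdh7 and Pcdh1. Pcdh18 thus moved from rank 10 in cRGCs to rank 2 in iRGCs, while Pcdh1 moved from rank 3 to rank 7. The rank of Pcdh18 in iRGCs rested on replicates 1 and 2 (7.31 and 7.60 CPM per kb). In iRGC replicate 3 it had 4.09 CPM per kb, below Pcdh19, Pcdh9, Pcdh8, Pcdh17 and Pcdh7. With coding length in place of exon length, Pcdh18 was at rank 5 in iRGCs and still at rank 10 in cRGCs, and Pcdh19 was at rank 1 in both.

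The make-up of the family was different as well as its sum. The 10 members summed to 35.7, 41.5 and 45.9 CPM per kb in iRGCs and 76.5, 76.2 and 71.7 CPM per kb in cRGCs. Delta-1 genes made up 36.5%, 36.2% and 35.6% of that sum in the iRGC libraries and 53.0%, 54.7% and 49.5% in the cRGC libraries, without overlap. Pcdh9 alone held 14.7% ± 1.47 of the sum in iRGCs and 27.4% ± 3.7 in cRGCs (SD, n = 3 each). Pcdh18 held 20.5%, 18.3% and 8.92% in iRGCs and 0.646%, 1.42% and 0.982% in cRGCs. Pcdh17 held 13.6% ± 2.03 against 5.44% ± 0.702 (SD, n = 3 each), a wider gap than that of its level, since the sum of the family was lower in iRGCs. Pcdh19 kept a like share in both populations, 21.1% ± 2.24 in iRGCs and 23.4% ± 4.6 in cRGCs (SD, n = 3 each), with overlapping libraries. With 3 libraries against 3, an exact permutation test cannot go below p = 0.1, so the shares are given as a description.

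**Figure D4:**
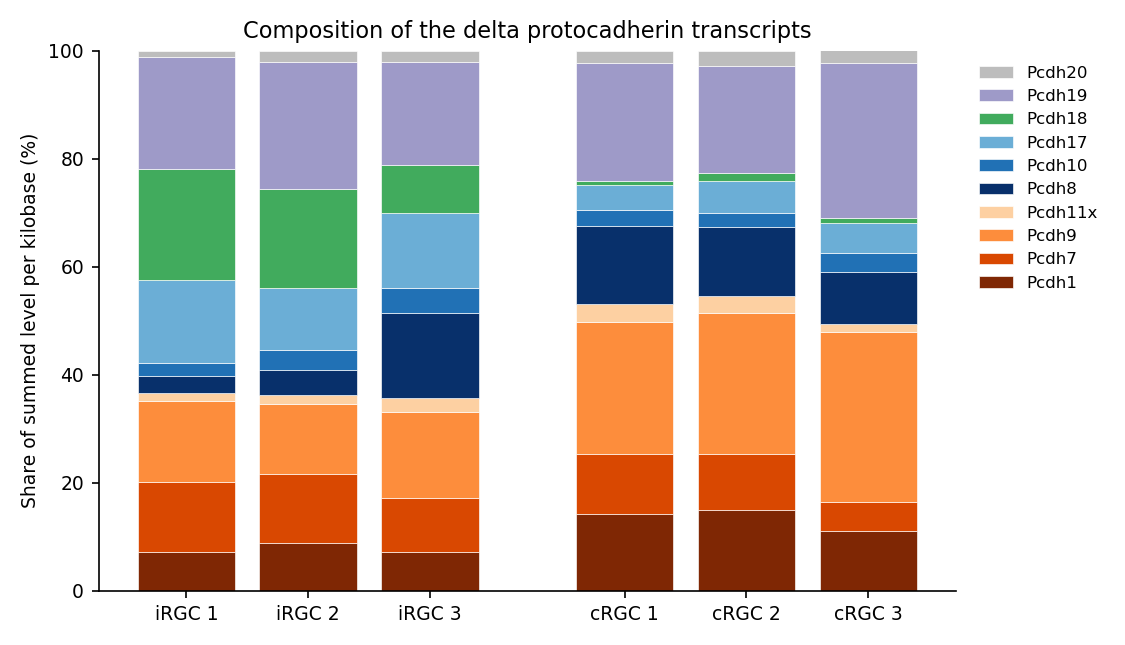
Share of each member in the summed CPM per kb of the 10 delta protocadherins (y axis, percent) in each library (x axis), with delta-1 genes in orange to brown, delta-2 genes in blue, green and violet and Pcdh20 in grey. Delta-1 genes fill 35.6% to 36.5% of the iRGC bars and 49.5% to 54.7% of the cRGC bars, and the green band of Pcdh18 is wide in iRGCs and narrow in cRGCs.

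The proteins that work with the delta protocadherins inside the cell were read next. Of the 11 WAVE complex genes, 3 were lower in iRGCs, 3 were higher and 5 did not pass. These shares, 27.3% each way, lay near the 23.1% and 23.3% of all tested genes, and the calls were divided between paralogous subunits. Cyfip2 had 176, 205 and 287 CPM in iRGCs against 532, 481 and 576 in cRGCs (log2 fold change -1.25), whereas its paralog Cyfip1 had 87.8, 109.7 and 74.5 CPM against 58.6, 57.8 and 59.7 (0.63). Wasf1 was lower (-0.53), while Wasf2 (0.78) and Wasf3 (0.46) were higher, and Abi2 was lower (-0.53), while Abi1 did not pass (-0.03). Nckap1, the subunit that Pcdh10 and Pcdh18 bind, had -0.19 and did not pass, with 258, 262 and 279 CPM in iRGCs against 302, 298 and 309.8. The adjusted p-values of these 6 called genes ranged from 7.19e-04 for Cyfip2 to 0.0235 for Wasf1 (edgeR with Benjamini-Hochberg).
Of the 9 Arp2/3 complex genes, 6 were lower (Actr2, Actr3, Arpc1a, Arpc2, Arpc3 and Arpc5), or 66.7% beside 23.1% of all tested genes, with log2 fold changes from -0.84 for Arpc5 to -0.40 for Arpc2. Arpc1b alone was higher, at 1.30, from 7.08, 13.3 and 6.72 CPM in iRGCs and 2.42, 3.49 and 5.10 CPM in cRGCs, while its paralog Arpc1a was lower (-0.62). Of the 3 catalytic subunits of PP1, the phosphatase that delta-1 tails bind, Ppp1cc was higher (0.60), and Ppp1ca (-0.04) and Ppp1cb (-0.14) did not pass.

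Of 7 other partners, 6 were higher in iRGCs, or 85.7% beside 23.3% of all tested genes. Dab1, the partner of Pcdh18, had 52.7, 29.4 and 47.5 CPM in iRGCs against 13.5, 20.3 and 18.4 CPM in cRGCs, or 1.31 on the log2 scale without overlap. Set, the cofactor of Pcdh7 in frog retinal axons, had 0.44, Mapk14, a kinase downstream of Taok2 and Pcdh8, had 0.58, and Nono, a nuclear protein that binds the tail of Pcdh19, had 0.39. The classical cadherins that bind delta protocadherins in cis, Cdh2 and Cdh11, had 0.37 and 0.84. Taok2 was the single partner that was lower (-0.46), from 184, 211 and 183 CPM in iRGCs and 273, 240.4 and 282 CPM in cRGCs. Dab1 and Pcdh18 therefore had the same direction, as did Taok2 and Pcdh8. Set and Pcdh7, Nono and Pcdh19, and Mapk14 and Pcdh8 had log2 fold changes of opposite sign. So did Cdh2, N-cadherin, and each of Pcdh19 and Pcdh8.

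Related cadherin families did not all look like the delta group. Of 58 clustered protocadherin identifiers, 56 were tested, 44 were lower in iRGCs, none was higher and 12 did not pass. That is 78.6% lower, beside 23.1% of all tested genes. The median was -1.15, the same as for the delta genes. Their log2 fold changes ranged from -2.64 for Pcdhac1 to -0.34, so that no tested clustered gene had the direction of Pcdh17 or Pcdh18, and the most abundant was Pcdhgc3 (37.2, 56.5 and 60.6 CPM against 69.2, 68.5 and 80.7). Genes of the alpha and gamma clusters share exons, and how reads on these were divided is uncertain.
The classical cadherins were evenly divided, with 6 lower and 6 higher of 16 tested. Both shares, 37.5%, lay above the 23.1% and 23.3% of all tested genes. Cdh12 had the lowest value (-2.46), Cdh20 the highest (2.57, from 104, 74.4 and 83.5 CPM against 9.84, 22.5 and 11.8) and Cdh2, N-cadherin, the highest level (444, 376 and 444 CPM against 344, 329 and 308). Of 8 tested Fat, Dchs and Celsr genes, cadherins that set up planar cell polarity, 3 were lower and 3 higher, also 37.5% each way. Dchs2 (-2.05) and Celsr3 (-1.30), which guides axon tracts, were lower, and Celsr1 (2.88) and Fat1 (2.09), the latter at 469, 399.7 and 362 CPM in iRGCs, were higher. Pcdh15, a non-clustered protocadherin of hair cells and photoreceptors outside the delta group, was lower at -0.64 (adjusted p = 0.0207, edgeR with Benjamini-Hochberg).

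**Figure D5:**
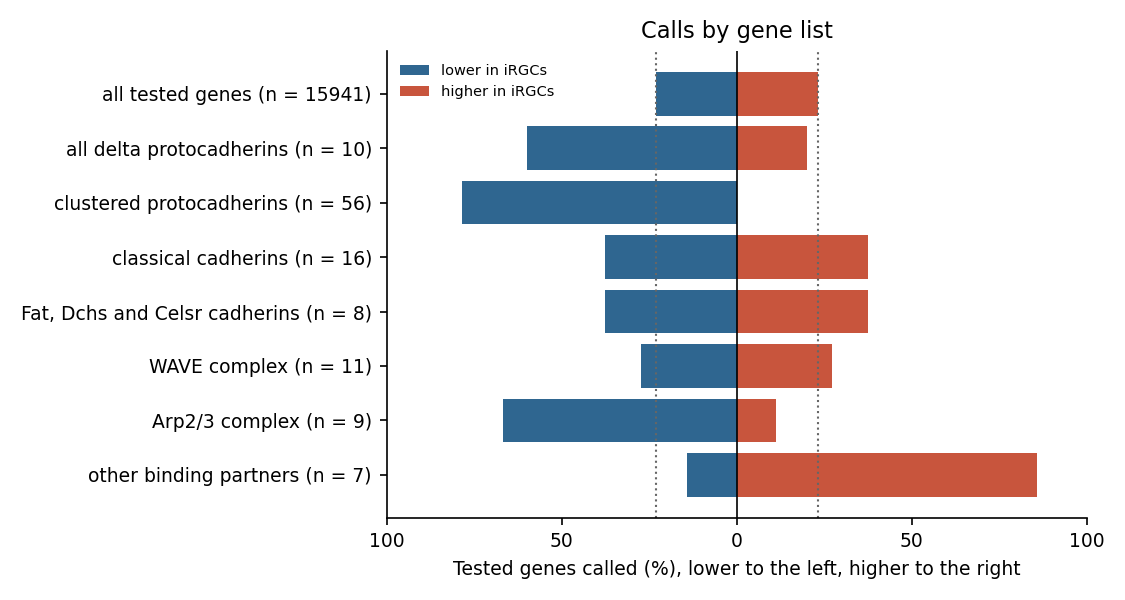
Percent of the tested genes of each list (y axis, with the number tested) that were lower (blue, to the left) or higher (red, to the right) in iRGCs at an adjusted p under 0.1, with dotted lines at the 23.1% and 23.3% of all tested genes. The clustered protocadherins have 78.6% lower and none higher, and the delta protocadherins have 60.0% lower and 20% higher.

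The positions of the members in the genome were compared with their direction. Pcdh8, Pcdh17, Pcdh20 and Pcdh9 lie in this order within 14.12 Mb of chromosome 14, with gaps of 4.67, 3.93 and 4.54 Mb that hold 1, 2 and 0 protein-coding genes. Pcdh17 was higher in iRGCs and the other 3 were lower, so genes of 1 gene-poor region had both directions. Pcdh10 and Pcdh18 lie 4.31 Mb apart on chromosome 3 with 1 protein-coding gene, Pabpc4l, between them, and had -0.59 and 3.06. On the X chromosome, Pcdh11x and Pcdh19 lie 12.67 Mb apart, with 20 protein-coding genes between them, and both were lower.
The nearest tested genes, chosen after the values were seen, had both directions. Slc7a11, the cystine transporter 135.2 kb from Pcdh18, was higher like Pcdh18 (2.49), and Klhl1, an actin-binding protein beyond Pcdh9, was lower like Pcdh9 (-1.34). On the other side, Dele1, 38.2 kb from Pcdh1, was higher (0.41) and so was Arap3 at 186.9 kb (2.43), although Pcdh1 was lower. Diaph3, a formin beyond Pcdh17, was higher (2.19).

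The genes with the profile most like each extreme member over the 6 libraries were found among 10275 tested genes with a mean of at least 10 CPM, by Pearson's r of log2(CPM + 0.5). These r are a description, since the 6 libraries belong to 2 populations rather than being 6 independent samples of a single group. For Pcdh9 they were Asic2 (r = 0.9990), an acid-sensing ion channel, Cxadr (r = 0.9990), an adhesion protein that serves as a virus receptor, and Prkcq (r = 0.9989), a protein kinase C, with log2 fold changes of -1.96, -1.01 and -2.35. For Pcdh18 they were Rhbdd1 (r = 0.9984), a rhomboid protease, Rbbp4 (r = 0.9981), a histone-binding chromatin protein, and Pole (r = 0.9973), a DNA polymerase subunit, with 0.96, 0.65 and 2.05.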

How the data were processed

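RNA-seq counts of 3 iRGC and 3 cRGC libraries were analysed, and the 13 ATAC-seq samples were not analysed here. The authors aligned reads to mm10 with HISAT2 2.1.0, counted them on Ensembl genes with HTSeq 0.11.1 and deposited raw counts per gene, without normalization. Versions are from the submitters' processing notes, and the strand setting is not given in the sources used here. Symbols, positions and exon lengths came from GENCODE M21 (46488 of 47069 identifiers). Tallies that name no gene stayed out. Reads that overlapped no gene were 12.33% to 23.25% of uniquely aligned reads. The test was edgeR 4.0.16 in R 4.3.3 (filterByExpr, TMM, quasi-likelihood test, Benjamini-Hochberg over 15941 genes, adjusted p under 0.1), and SE is the absolute log2 fold change over the square root of F. For iRGCs the TMM factor lay between 1.03 and 1.1, and for cRGCs between 0.921 and 0.952. The biological coefficient of variation was 36.3%, so small changes of low genes may have gone undetected. No 2 libraries of the same population agreed within sampling noise.

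Members, gene lists and markers were chosen with earlier results of these data known, and the motifs and the neighbouring genes after sequences and values were seen. By rule, the named genes were all members, any gene of a list of 11 or fewer (not all of these are printed), in longer lists the called gene with the largest change in each direction and the most abundant gene, and the 3 genes most like each extreme member. Other marker genes were named after their values were seen. Alternatives were DESeq2 1.42.0 (size factors, Wald test), upper quartile factors, limma 3.58.1 voom, other count filters (none, or at least 10 in every library), each library left out, a block for the replicate number, a threshold of 0.05, an absolute log2 fold change above 1, and coding or no length. The fit was tested on simulated data. Python 3.11.15 with matplotlib 3.10.9 drew the figures.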

Additional observations from a re-analysis of the deposited data

How the results depend on the processing

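Of 130 alternative fits of the 10 members, 11 changed a call and 0 reversed a direction. Pcdh1, Pcdh9, Pcdh11x, Pcdh18, Pcdh19 and Pcdh20 kept their calls in all 13 alternatives each. The number of lower members was 5 to 7, also when 1 library was left out, and that of higher members was 1 to 2 when 1 library was left out and 1 with an absolute log2 fold change above 1, where 1758 tested genes were lower and 1930 higher. Pcdh8 was not called by the DESeq2 Wald test (-1.43, adjusted p = 0.11), and Pcdh10 was called by limma voom (-0.67, adjusted p = 0.0812). With 1 library left out, log2 fold changes ranged from -0.77 to -0.30 for Pcdh7, -2.56 to -1.0 for Pcdh8, -0.95 to -0.30 for Pcdh10 and 0.33 to 0.56 for Pcdh17. Calls differed without cRGC replicate 3 (Pcdh7 and Pcdh17), without iRGC replicate 3 (Pcdh10 and Pcdh17), without cRGC replicate 1 (Pcdh8 and Pcdh17) and without iRGC replicate 1, iRGC replicate 2 or cRGC replicate 2 (Pcdh8). The cause was not tested. The delta-1 share was 32.3% in iRGCs and 46.6% in cRGCs with coding length, and 35.3% in iRGCs with no length.

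Deviations of libraries with the same replicate number correlated at -0.0142, -0.0446 and -0.0669. Those with different numbers correlated at -0.0239 to 0.0701. No pairing by number was seen, but with 3 libraries centred in each population these values cannot exclude it. With the replicate number as a block, 6 members were lower and 2 higher, and 3435 genes were lower and 3316 higher.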

Other observations

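Pcdh12, the other non-clustered protocadherin outside the delta group and a gene known from endothelial cells, had 2.73 and 12.5 CPM in iRGC replicates 1 and 2 and 0 reads in iRGC replicate 3 and in the 3 cRGC libraries, and was not tested because too few libraries held counts of it to pass the filter. A count of 0 allows up to 3 reads, which is at most 0.1061 CPM, unscaled, in the cRGC libraries.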
